A study of Macaca mulatta with 8 samples.

Results

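Antigen presentation and costimulation were followed through 10 genes: CD74 and CIITA for the class II route, B2M, TAP1, TAP2, TAPBP and NLRC5 for the class I route, and CD80, CD86 and CD40 for costimulation. They were found by gene symbol in the read count files, where 8 of the 10 were found among 35432 genes, and TAP1 and TAP2 were not analysed here. The cells were primary microglia, the resident macrophages of the brain, grown from subcortical white matter of 4 adult rhesus macaques (donors R07110, R12016, R02046 and R14143). They were kept 8 days in medium with serum and M-CSF, a macrophage growth factor. The paper lists R07110 and R12016 as male and R02046 and R14143 as female, each of a different age. On day 7 the cells of each donor were exposed either to 10 µg/mL uLPS (ultrapure lipopolysaccharide, an agonist of TLR4) alone or to 5 µM MRS2578 for 1 h and then to uLPS. MRS2578 blocks the UDP receptor P2RY6, and the study describes it as selective but not fully specific. RNA was taken after 16 h of uLPS, which gave 8 libraries, 1 for each donor and condition, so that the comparison of the design was made within each animal. All 8 libraries received uLPS, so no unstimulated level was measured here. In RNA from whole cultures, fewer cells of a type and less RNA per cell cannot be told apart.

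Nucleated cells show peptides from their own cytosol on class I molecules, whose heavy chain is stable only when bound to B2M and is loaded with peptide by a complex that holds tapasin (TAPBP). Macrophages and microglia also show peptides from engulfed material on class II molecules, which the invariant chain CD74 escorts to the endosome. CIITA and NLRC5 are related coactivators of class II and class I genes, and CD80, CD86 and CD40 are the surface molecules through which an antigen presenting cell engages CD28, CTLA4 and CD40 ligand on T cells.

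The conditions of the libraries of R02046 are in doubt. In a table of normalized counts (CPM, counts scaled to library size) that accompanies the study, 6 of the 8 columns were proportional to the deposited library of the same donor and condition, and the 2 columns of R02046 were each proportional to the library of R02046 labelled with the other condition. The paper reports IL-12p40 (gene IL12B) as lowered and HSPA5 as raised by MRS2578 with uLPS. As labelled, the log2 differences of IL12B were -2.54, -4.02, 1.08 and -0.76 in R07110, R12016, R02046 and R14143. Those of HSPA5 were 1.90, 2.61, -0.66 and 0.13. For R02046, the paper lists less secreted IL-12p40 protein with 5 µM MRS2578 and uLPS than with uLPS alone. Which labels are right was not tested. Results are therefore given with the deposited labels, with the 2 conditions of R02046 exchanged, and without R02046.

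Total counts ran from 9231109 to 32790348 per library, so that a gene without reads could have stood at up to 3 counts, which is 0.0913 to 0.320 CPM. CPM values were scaled by TMM, these included, and such limits cover counting error only. The 12 microglia and macrophage markers found summed to 4514 to 5389 CPM with uLPS and 4142 to 5305 CPM with MRS2578, with CSF1R between 1007 and 1471 CPM. The homeostatic microglia markers TMEM119 and CX3CR1 reached at most 0.316 and 2.21 CPM, and P2RY12 stood at 5.70 to 13.3 CPM. The 7 B cell markers summed to at most 0.853 CPM and the 8 T cell markers to at most 2.74 CPM. The 10 dendritic cell markers summed to 10.46 to 100.3 CPM with uLPS and 12.1 to 34.3 CPM with MRS2578, with FLT3, XCR1 and FCER1A at 0 in all 8 libraries. The highest of these sums belonged to R12016 with uLPS, where CCR7, a homing receptor of activated dendritic cells, stood at 82.0 CPM. Marker sums ran from 26.0 to 106 CPM over the libraries for 4 astrocyte genes, from 61.3 to 76.1 CPM for the 4 oligodendrocyte genes found and from 155 to 291 CPM for 4 endothelial genes.

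Per kilobase of the longest annotated transcript, B2M was the most abundant member, at a mean of 3274 CPM per kilobase over the 8 libraries. CD86 followed with 197 and TAPBP with 187 CPM per kilobase, and CD86 was above TAPBP in 6 of 8 libraries. CD74 (84.0), CD80 (65.9) and CD40 (43.0 CPM per kilobase) formed the middle of the order, with CD74 above CD80 in 4 of 8 libraries and CD80 above CD40 in 6 of 8. Neighbours that changed places between libraries are thus not separated by their spread. The coactivators were lowest: NLRC5 stood at 6.26 and CIITA at 1.76 CPM per kilobase, each step in the same order in all 8 libraries. The order was the same when lengths were taken as the union of exons. Lengths came from the NCBI annotation and counts from Ensembl genes, and a transcript annotated too short raises the value per kilobase. CD86 and CD80 had 1033 and 1148 bases by both measures, against 2570 for the longest transcript of TAPBP. The union of exons therefore cannot check the places of CD86 and CD80 in the order.

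**Figure D1:**
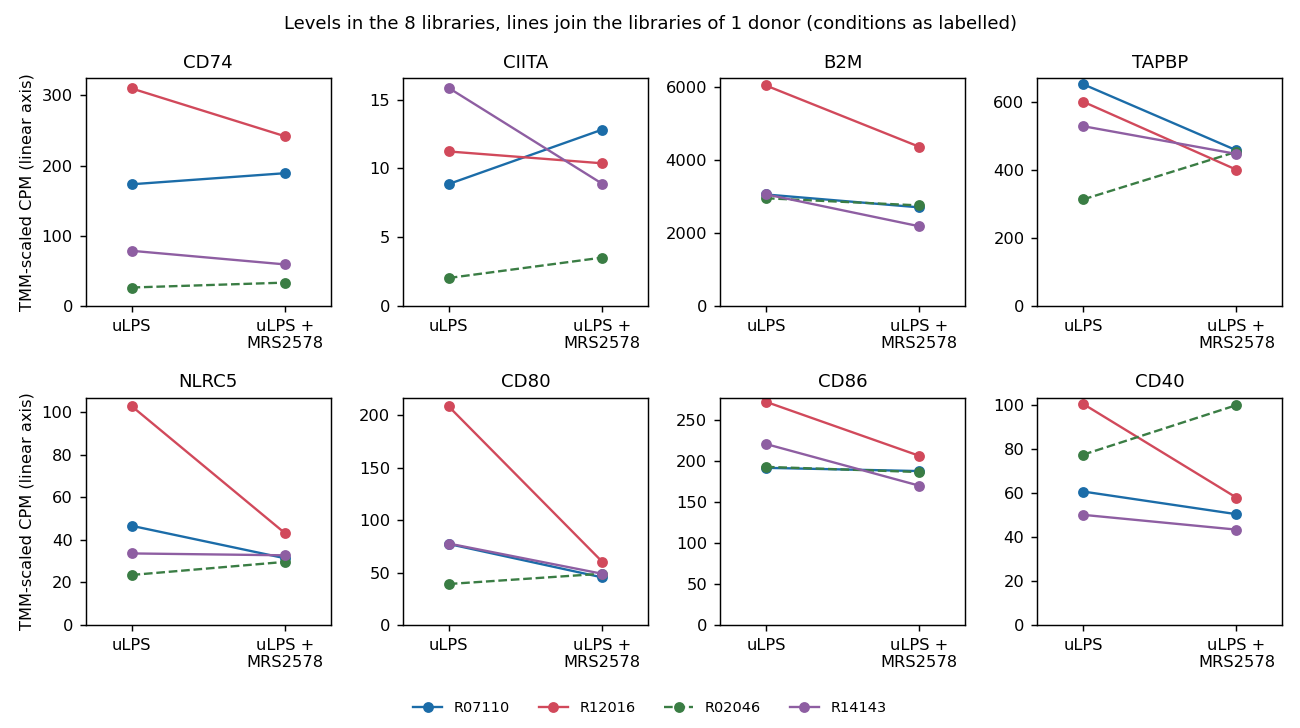
TMM-scaled CPM (vertical axis, linear, from 0) of the 8 genes in the 8 libraries, with a line joining the uLPS and the uLPS and MRS2578 library of each donor and R02046 dashed, conditions as labelled. As labelled, the points of every gene but CD40 lie closer together with MRS2578 than with uLPS, for B2M and CD74 only with R12016 included. The dashed line runs against the other lines for TAPBP, NLRC5, CD80 and CD40.

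With MRS2578, CD80, TAPBP, NLRC5, CD40, B2M and CD86 were lower in R07110, R12016 and R14143, with CD80 down most, and in R02046 as labelled only B2M and CD86 were. CD74 and CIITA had no common direction. None of the 8 differences passed edgeR's quasi-likelihood test over all genes under any of the 3 assignments of R02046, although other tests called some with R02046 exchanged.

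In the class I route, B2M (beta-2 microglobulin, chromosome 7, 21220625 to 21227670 of Mmul_10, plus strand) was the largest signal. Donors are given here and below in the order R07110, R12016, R02046, R14143. With uLPS, B2M stood at 3049, 6033, 2946 and 3054 CPM. With MRS2578 it stood at 2696, 4354, 2749.6 and 2179 CPM. It was lower with MRS2578 in each donor as labelled, while the ranges of the conditions overlapped because R12016 was high in both. With R02046 exchanged, B2M would be higher with MRS2578 in that donor. The log2 fold change was -0.31 (SE 0.17, 95% interval -0.70 to 0.09) with an adjusted p of 0.877 from edgeR (quasi-likelihood test blocked on donor, Benjamini-Hochberg adjusted over all genes). The value was -0.26 (adjusted p 0.410, edgeR) with R02046 exchanged and -0.38 (adjusted p 0.386, edgeR) without R02046.

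TAPBP (tapasin, chromosome 4, 136191811 to 136205440, plus strand) bridges empty class I molecules to the peptide transporter. Its levels with uLPS were 651, 600.0, 313 and 528 CPM. With MRS2578 they were 457, 400.0, 453 and 446 CPM. As labelled, the MRS2578 libraries thus spanned a range that lay below the uLPS libraries of R07110, R12016 and R14143 and above that of R02046. The mean was 523 ± 149 CPM (SD, n = 4) with uLPS and 439 ± 26.4 CPM with MRS2578, and with R02046 exchanged it was 558 ± 86.5 and 404 ± 65.8 CPM. For TAPBP the log2 fold change was -0.20 (SE 0.19, adjusted p 0.906, edgeR) with the deposited labels, -0.47 (SE 0.093, 95% interval -0.68 to -0.25, adjusted p 0.0723, edgeR) with R02046 exchanged and -0.45 (adjusted p 0.217, edgeR) without it. With the deposited labels it was -0.072 without R12016 and -0.10 without R07110 (edgeR adjusted p 1.00 and 0.999).

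NLRC5 (chromosome 20, 44236656 to 44329987, plus strand), a coactivator of class I genes, stood at 46.6, 103, 23.5 and 33.6 CPM with uLPS. With MRS2578 it stood at 31.3, 43.1, 29.6 and 32.7 CPM. R12016 with uLPS was the highest library, the donor R14143 hardly differed between conditions, and the conditions overlapped. The fitted log2 fold change of NLRC5 was -0.39 (SE 0.25, adjusted p 0.877, edgeR) with the deposited labels, -0.56 (SE 0.18, adjusted p 0.192, edgeR) with R02046 exchanged and -0.63 (adjusted p 0.328, edgeR) without R02046. Without R12016 it was -0.10 (edgeR adjusted p 1.00) with the deposited labels and -0.31 (edgeR adjusted p 0.536) with R02046 exchanged.

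The promoter windows of B2M, TAPBP and CD80 are shown because B2M was the most abundant member, CD80 had the largest difference, and TAPBP had the lowest adjusted p with R02046 exchanged. Each is the 250 bases before the annotated gene start in Mmul_10, read 5′ to 3′ on the gene's strand, with motif matches in capitals. The B2M window is chr7:21220375-21220624, the TAPBP window chr4:136191561-136191810 and the CD80 window chr2:156709000-156709249, all on the plus strand.
B2M: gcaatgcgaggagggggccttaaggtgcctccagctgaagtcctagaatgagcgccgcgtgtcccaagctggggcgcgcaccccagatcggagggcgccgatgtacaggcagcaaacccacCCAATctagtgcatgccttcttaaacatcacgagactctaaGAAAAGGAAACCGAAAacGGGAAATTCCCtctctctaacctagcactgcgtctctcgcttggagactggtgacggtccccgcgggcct
TAPBP: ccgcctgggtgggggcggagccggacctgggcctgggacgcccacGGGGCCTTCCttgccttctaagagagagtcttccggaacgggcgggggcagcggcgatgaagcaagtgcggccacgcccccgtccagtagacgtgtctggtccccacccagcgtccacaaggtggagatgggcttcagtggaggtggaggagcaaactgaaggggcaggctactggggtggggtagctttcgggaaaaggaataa
CD80: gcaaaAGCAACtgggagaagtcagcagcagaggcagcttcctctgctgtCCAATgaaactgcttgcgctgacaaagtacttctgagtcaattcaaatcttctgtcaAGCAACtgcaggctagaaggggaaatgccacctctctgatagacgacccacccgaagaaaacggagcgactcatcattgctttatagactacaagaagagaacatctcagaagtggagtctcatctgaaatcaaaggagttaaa
Searched on both strands were CCAAT (the box bound by NF-Y), AGCAAC (a core of the X1 box of class I and class II promoters), TTCNNNGAA (the GAS element of interferon-gamma responses), GAAANNGAAA (a core of the interferon-stimulated response element) and GGGNNNTTCC (a subset of NF-κB sites). Among the windows of 20773 protein-coding genes, 31% held CCAAT, 9.32% AGCAAC, 5.974% TTCNNNGAA, 3.028% GAAANNGAAA and 5.079% GGGNNNTTCC. The B2M window held 1 CCAAT, 2 overlapping matches to GAAANNGAAA and, directly after them, 2 overlapping matches to GGGNNNTTCC. The TAPBP window held 1 match to GGGNNNTTCC, and the CD80 window held 2 matches to AGCAAC and 1 to CCAAT. Of the other members, CD86 held 2 overlapping matches to GAAANNGAAA and 1 to CCAAT, CIITA 2 and CD74 1 to CCAAT, and NLRC5 and CD40 held no match in these windows. The start used in these cells was not measured, and a match is a description of the letters only.

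In the class II route, CD74 (invariant chain, chromosome 6, 147911733 to 147922838, minus strand) differed far more between animals than between conditions. With uLPS it stood at 173, 310.0, 26.1 and 78.5 CPM. With MRS2578 it stood at 189, 242, 33.1 and 59.1 CPM. It was higher with MRS2578 in R07110 and R02046 and lower in R12016 and R14143 as labelled, and both libraries of a donor lay apart from those of every other donor. Between conditions its log2 fold change was -0.08 (SE 0.15, 95% interval -0.43 to 0.27, adjusted p 0.949, edgeR) with the deposited labels, -0.24 (adjusted p 0.330, edgeR) with R02046 exchanged and -0.21 (adjusted p 0.546, edgeR) without R02046.

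CIITA (chromosome 20, 10827489 to 10889183, plus strand), the coactivator on which class II transcription depends, rested on few reads. With uLPS there were 291, 176, 19 and 312 counts, or 8.86, 11.2, 2.03 and 15.9 CPM. With MRS2578 there were 317, 164, 48 and 159 counts, or 12.8, 10.4, 3.51 and 8.89 CPM. The difference was upward in R07110 and R02046 and downward in R14143, and it was small in R12016. For CIITA the log2 fold change was 0.02 (SE 0.27, 95% interval -0.63 to 0.66, adjusted p 0.997, edgeR), -0.20 (adjusted p 0.749, edgeR) with R02046 exchanged and -0.13 (adjusted p 0.882, edgeR) without R02046.

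In costimulation, CD80 (B7-1, chromosome 2, 156709250 to 156741505, plus strand), which binds CD28 and CTLA4, showed the largest difference of the 8 genes in each of the 3 assignments. With uLPS it stood at 77.2, 208, 39.1 and 77.6 CPM. With MRS2578 it stood at 45.4, 60.4, 48.9 and 48.8 CPM. In R07110, R12016 and R14143 the uLPS library was the higher of the pair and lay above all 4 MRS2578 libraries, and in R02046 as labelled the order was the opposite. The mean was 100.5 ± 74.0 CPM (SD, n = 4) with uLPS and 50.9 ± 6.57 CPM with MRS2578. For CD80 the log2 fold change was -0.73 (SE 0.30, 95% interval -1.45 to -0.02), with an unadjusted p of 0.0455 and an adjusted p of 0.877 in edgeR's test. With R02046 exchanged it was -0.89 (SE 0.21, adjusted p 0.105, edgeR), and without R02046 it was -1.07 (SE 0.23, adjusted p 0.179, edgeR). R12016 with uLPS was also the library with the high CCR7 level, and without this donor the deposited labels gave -0.38 (edgeR adjusted p 1.00) and the exchanged labels -0.59 (edgeR adjusted p 0.199). The part of the CCR7 signal in the CD80 result was not tested.

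CD86 (B7-2, chromosome 2, 154195678 to 154223008, minus strand) engages the same receptors as CD80 and was the steadiest member. With uLPS it stood at 192, 273, 193 and 221 CPM. With MRS2578 it stood at 188, 207, 187 and 170.3 CPM. It was lower with MRS2578 in each donor as labelled, by very little in R07110 and R02046, and the conditions overlapped. With R02046 exchanged, CD86 would be slightly higher with MRS2578 in that donor. The log2 fold change was -0.21 (SE 0.11, 95% interval -0.47 to 0.04, adjusted p 0.877, edgeR), -0.19 (adjusted p 0.412, edgeR) with R02046 exchanged and -0.27 (adjusted p 0.382, edgeR) without R02046. With R02046 exchanged and R12016 left out it was -0.11 (edgeR adjusted p 0.807).

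The ratio of CD80 to CD86 per kilobase within a library does not depend on how libraries are scaled. With uLPS it was 0.362, 0.687, 0.182 and 0.316 for R07110, R12016, R02046 and R14143. With MRS2578 it was 0.217, 0.263, 0.235 and 0.258. In R07110, R12016 and R14143 the ratio was thus lower with MRS2578, in R02046 as labelled it was higher, and the 4 MRS2578 libraries lay between the uLPS libraries of R02046 and R14143. With 4 pairs an exact sign test cannot give a two-sided p below 0.125.

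CD40 (chromosome 10, 81311826 to 81322796, plus strand), the receptor for CD40 ligand of activated T cells, stood at 60.6, 100.5, 77.4 and 50.1 CPM with uLPS. With MRS2578 it stood at 50.3, 57.9, 99.9 and 43.3 CPM. R02046 was the highest donor on average, and the conditions overlapped. The log2 fold change was -0.23 (SE 0.18, adjusted p 0.901, edgeR), -0.41 (SE 0.12, adjusted p 0.146, edgeR) with R02046 exchanged and -0.42 (adjusted p 0.305, edgeR) without R02046. Without R12016 it was -0.033 (edgeR adjusted p 1.00) with the deposited labels.

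**Figure D2:**
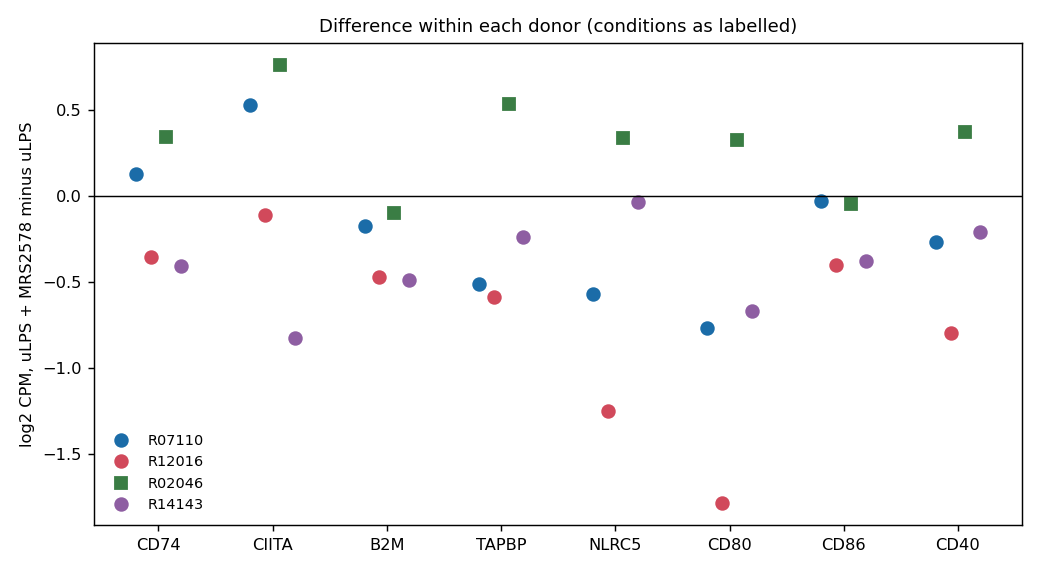
Difference in log2 CPM (vertical axis, uLPS and MRS2578 minus uLPS, prior count of 2) for each gene (horizontal axis) and donor (colours, R02046 as squares), conditions as labelled. R07110, R12016 and R14143 lie below 0 for B2M, TAPBP, NLRC5, CD80, CD86 and CD40, and R02046 lies above 0 for 6 of the 8 genes.

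Within donors, the 8 genes split into a group with 1 direction in R07110, R12016 and R14143 and a pair without. In these 3 donors B2M, TAPBP, NLRC5, CD80, CD86 and CD40 were lower with MRS2578, which is 6 of 8 members, against 19.8% of the 12131 genes tested. The log2 differences of CD80 were -0.76, -1.78 and -0.67 in these donors, those of TAPBP -0.51, -0.58 and -0.24, and those of CD40 -0.27, -0.79 and -0.21. The NLRC5 difference in R14143 (-0.04) and the CD86 difference in R07110 (-0.03) were close to 0, and turned to 0.030 and 0.029 when libraries were scaled by their total counts. CD74 and CIITA were higher in R07110, at 0.13 and 0.53, and lower in R14143, at -0.41 and -0.83. TAPBP, NLRC5, CD80 and CD40 were also higher with MRS2578 in R02046 as labelled, at 0.53, 0.33, 0.32 and 0.37, so that 4 of 8 members had R02046 opposed to the other 3 donors, against 13.2% of all genes. B2M and CD86 were lower in R02046 as labelled as well, at -0.10 and -0.05, and would be higher there with the conditions exchanged.

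None of the 8 members was called at an adjusted p of 0.05 with the deposited labels, where edgeR's quasi-likelihood test called 0% of all genes. DESeq2's Wald test and edgeR's likelihood ratio test also called 0 members with these labels. At an unadjusted p of 0.05, 1 of 8 members (CD80) was lower, against 2.44% of all genes that were lower at this level. With R02046 exchanged the quasi-likelihood test called 0.618% of all genes and again 0 of the 8 members. There, 4 of 8 members (TAPBP, NLRC5, CD80 and CD40) were lower at an unadjusted p of 0.05, against 9.6% of all genes. With this exchange DESeq2's Wald test called TAPBP (adjusted p 0.000503) and CD80 (adjusted p 0.00247), and edgeR's likelihood ratio test called TAPBP, CD80 and CD40 (adjusted p 0.00741, 0.00440 and 0.0494), all as lower, against 3.52% and 3.47% of all genes called as lower by the same tests. Still with R02046 exchanged, the quasi-likelihood test without R14143 called TAPBP, NLRC5, CD80 and CD40 as lower (edgeR adjusted p 0.0156, 0.0384, 0.0447 and 0.0483), against 4.22% of all genes, and without R07110 or R12016 it called 0 members. With the deposited labels it called 0 members with any donor left out. Without R02046, edgeR's test called 0% of 12295 genes and 0 members. The median log2 fold change of the 8 members was -0.22 with the deposited labels, -0.33 with R02046 exchanged and -0.40 without R02046, and the medians over all genes tested were -0.01, 0.00 and -0.00.

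**Figure D3:**
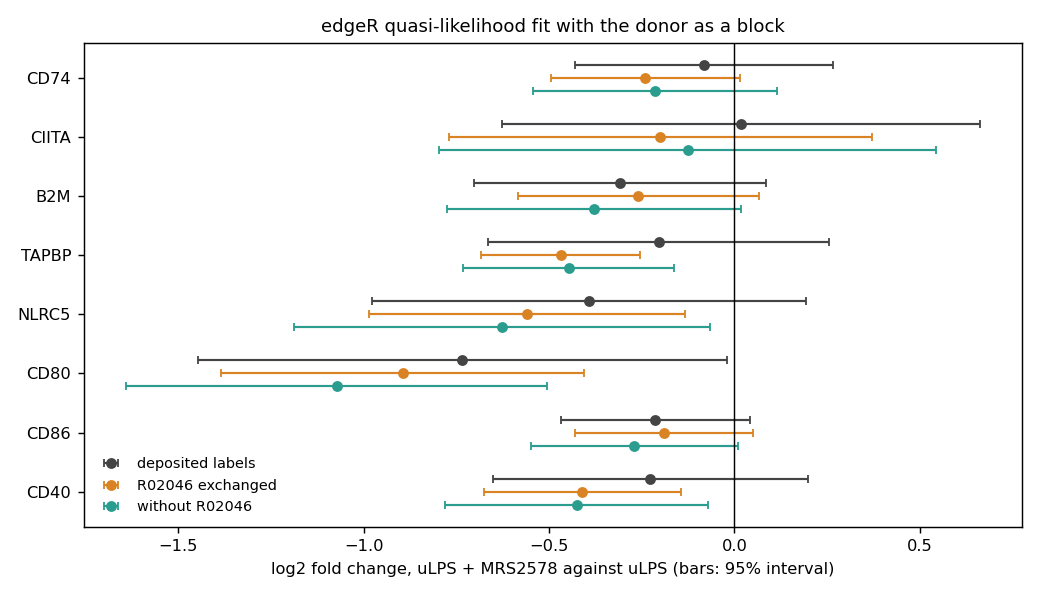
Log2 fold change of uLPS and MRS2578 against uLPS (horizontal axis) for each gene with its 95% interval as a bar, from the edgeR fit blocked on donor, under the deposited labels, with R02046 exchanged and without R02046. The intervals of CD80 lie below 0 in all 3 cases, and those of TAPBP, NLRC5 and CD40 only with R02046 exchanged or left out, all before adjustment for the number of genes.

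Differences between animals were tested in the same model after the levels had been seen. The animals differed in sex and age, which cannot be told apart from other differences between them. Among the members, CD74 alone was called (adjusted p 0.00290, edgeR's quasi-likelihood test), which is 1 of 8 against 7.36% of all genes. Its donor means were 276 CPM in R12016 and 181 in R07110, the males, and 68.8 in R14143 and 29.6 in R02046, the females. The ratio between the highest and the lowest was 9.31. CIITA did not follow that order: its donor means were 12.4 CPM in R14143, 10.8 in both R07110 and R12016 and 2.77 in R02046 (adjusted p 0.0669, edgeR). Per kilobase, CD74 was between 15.7 and 21.0 times CIITA in the libraries of R14143, and between 73.8 and 87.3 times in those of R12016. The ratios of the highest to the lowest donor mean of the remaining members were 3.05 for CD80, 2.75 for NLRC5, 1.99 for B2M, 1.90 for CD40, 1.45 for TAPBP and 1.26 for CD86, and none of these was called (edgeR adjusted p 0.0850 for B2M to 0.541 for TAPBP).

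Class II chains, which were chosen for this comparison after their values had been seen, only partly shared the donor order of CD74. MAMU-DRA, the alpha chain of DR, had donor means of 110 CPM in R12016, 75.4 in R07110, 29.8 in R14143 and 11.9 in R02046 (adjusted p 0.00653, edgeR), the order of CD74. The ratio of CD74 to MAMU-DRA per kilobase stayed between 1.68 and 2.27 over the 8 libraries. MAMU-DRB1, a beta chain, was instead lowest in R14143, at 12.8 CPM against 137 in R07110 (adjusted p 0.00335, edgeR). MAMU-DMB, a chain of the peptide editor DM, ran opposite to CD74, from 11.5 CPM in R12016 to 57.7 in R02046 (adjusted p 0.0133, edgeR). DR beta genes vary in sequence and copy number between macaques, and reads with more than 1 place in the genome were not counted, so the MAMU-DRB1 levels are uncertain.

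**Figure D4:**
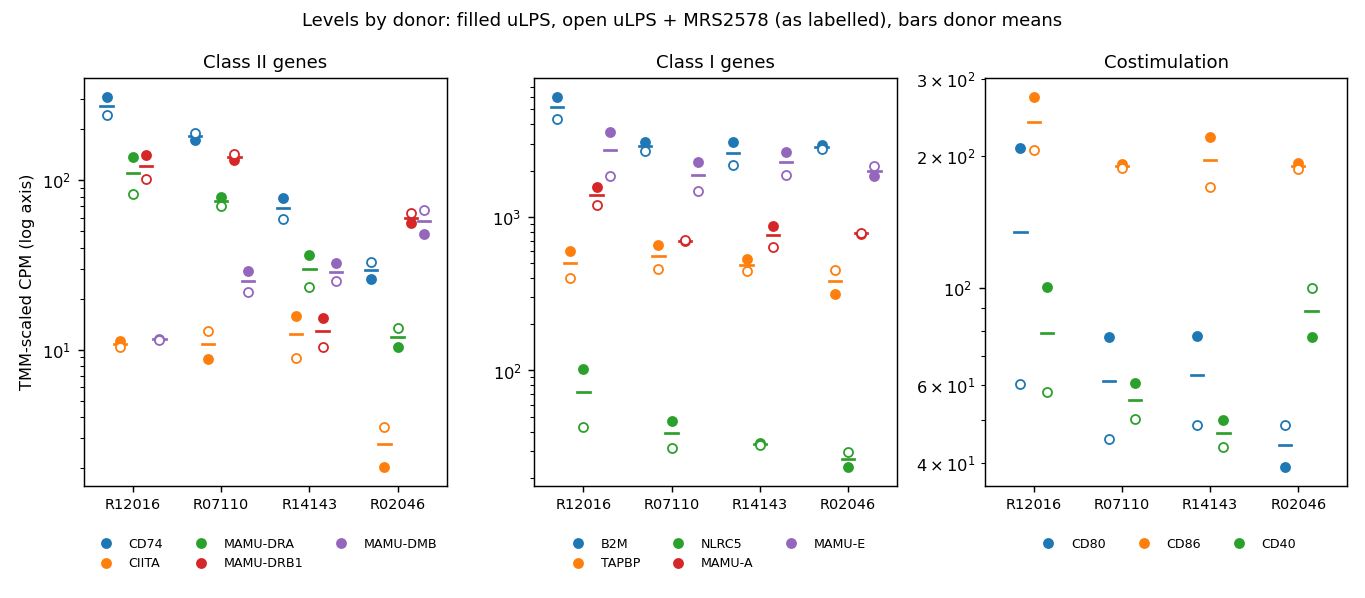
TMM-scaled CPM (vertical axis, log scale) by donor (horizontal axis) of class II, class I and costimulation genes, with filled points for uLPS, open points for uLPS and MRS2578 as labelled, and bars for donor means. CD74 and MAMU-DRA are highest in R12016 and lowest in R02046 and MAMU-DMB the reverse, and the class I and costimulation genes span smaller ranges.

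In the rest of the pathway, read through 7 gene lists, edgeR's quasi-likelihood test called no gene with the deposited labels or without R02046. With R02046 exchanged it called 1 gene of the lists, CTSH (cathepsin H, a lysosomal protease), with a log2 fold change of -0.74 and an adjusted p of 0.0495. In the same order of donors CTSH stood at 1345, 2099, 965 and 1401 CPM with uLPS, and at 793, 1032, 1267 and 811 CPM with MRS2578. Its log2 fold change was -0.55 (adjusted p 0.877, edgeR) with the deposited labels and -0.86 (adjusted p 0.124, edgeR) without R02046. As labelled, R02046 was opposed to the other 3 donors, as for CD80, TAPBP and 13.2% of all genes. CTSH was named because it was called with R02046 exchanged, which favours genes with that pattern.

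Class II molecules found by symbol were 5, none of them a DP or DQ chain. Of the 4 tested, 3 were lower in R07110, R12016 and R14143 with MRS2578, MAMU-DOB among them. Of class I and class I-like molecules, 2 of 7 were lower in these donors. Of the class I heavy chain genes found by symbol (MAMU-A, MAMU-E and MAMU-F), MAMU-E had the highest CPM. Its log2 fold change was -0.46 (adjusted p 0.877, edgeR) and -0.57 with R02046 exchanged (adjusted p 0.106, edgeR). MAMU-A followed, at -0.21 and -0.22 (edgeR adjusted p 0.882 and 0.400). Reads with more than 1 place in the genome were not counted, so the order of these class I genes is uncertain. Of the class II molecules found by symbol, MAMU-DOB had the highest CPM, at -0.32 and -0.41 (edgeR adjusted p 0.877 and 0.105). Its partner chain MAMU-DOA had 1 count over the 8 libraries. MAMU-DRB1 followed, at -0.17 and -0.26 (edgeR adjusted p 0.906 and 0.359). In class I peptide supply and loading, 6 of 15 genes were lower and 5 higher in these 3 donors. Of the 12131 genes tested, 2061 were higher in all 3. Its most abundant genes were the chaperones HSPA5, at 1.00 and 1.32 (edgeR adjusted p 0.877 and 0.153), and CALR, at 0.10 and 0.23 (edgeR adjusted p 0.945 and 0.375). The donors were split for HSPA5, which the paper reports as induced. It rose most in R07110 and R12016, rose little in R14143 and fell in R02046 as labelled. The immunoproteasome subunits PSMB9 and PSMB10 and the tapasin-related TAPBPL, named after their values were seen, were lower in all 4 donors as labelled, as were 6.49% of all genes. With R02046 exchanged, they would be higher with MRS2578 in that donor. The log2 differences of PSMB9 lay between -0.65 and -0.39, and its log2 fold change was -0.49 (adjusted p 0.877, edgeR) with the deposited labels and -0.30 (adjusted p 0.412, edgeR) with R02046 exchanged. PSMB8, the third immunoproteasome subunit, was lower in R07110, R12016 and R14143 but stood at 0.07 in R02046 as labelled.

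In class II processing and turnover, 6 of 13 genes were lower in R07110, R12016 and R14143, and the most abundant were the protease CTSB, at -0.18 and -0.17 (edgeR adjusted p 0.929 and 0.631), and the CD74 partner CD44, at -0.27 and -0.61 (edgeR adjusted p 0.916 and 0.104). Of the transcription regulators, 9 of 20 were lower in these donors, with SPI1, a master regulator of macrophages, at -0.23 and -0.29 (edgeR adjusted p 0.877 and 0.178). Of other costimulatory and adhesion ligands, 6 of 14 were lower, with ICAM1 at -0.24 and -0.42 (edgeR adjusted p 0.885 and 0.0871) and CD276 at -0.02 and -0.13 (edgeR adjusted p 0.991 and 0.521). In CD40 signalling, 8 of 14 genes were lower, with TRAF1 at -0.33 and -0.54 (edgeR adjusted p 0.899 and 0.186) and TNFAIP3 at -0.31 and -0.55 (edgeR adjusted p 0.882 and 0.0566). All these log2 fold changes are given first with the deposited labels and then with R02046 exchanged, and the share of all genes lower in the 3 donors was the 19.8% given above. The astrocyte marker SLC1A2 was also called with R02046 exchanged, at -1.22 (adjusted p 0.0327, edgeR), whereas GFAP, the other astrocyte marker tested, stood at 0.15 (adjusted p 0.810, edgeR). The part of these markers in the results above was not tested.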

How the data were processed

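RNA was measured in 8 libraries of macaque microglia. The authors deposited whole-number read counts per Ensembl gene, without normalization. The paper names fastp, STAR on Mmul_10 and HTSeq for these counts, with only uniquely mapped reads within exons, whereas the submitters' processing notes name Trimmomatic (version 0.30), TopHat2 (2.0.14), SAMtools (1.3) and HTSeq (0.6.1p1). The libraries were made with a directional kit, but whether the counting used strand is not given in the sources used here, so counts of genes that overlap on opposite strands are uncertain. The authors' CPM table served only to compare its columns with the libraries.

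The analysis used edgeR (version 4.0.16, R 4.3.3). Genes were kept by filterByExpr with a minimum count of 10, which left 12131 genes, all 8 members among them. Libraries were scaled by TMM, and the MRS2578 effect came from edgeR's quasi-likelihood F-test blocked on donor, because both libraries of a donor come from 1 animal, and Benjamini-Hochberg adjustment over all genes at 0.05. As a check of the pairing, each library's deviation from its condition mean was correlated with that of the same donor, at 0.458 to 0.602. A prior count of 2 was used for log2 CPM. No pair of libraries was a duplicate (smallest chi-square per degree of freedom of the counts 19.6). Alternatives were DESeq2 (version 1.42.0), edgeR's likelihood ratio test and legacy estimation, other filters, scalings and prior counts, no donor block, and each donor left out.

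Members, gene lists and tests were chosen with earlier results of these data known. Named were all members and, from each list, every called gene and the 2 most abundant, of which 1 is not reported here. Positions, transcript lengths and promoter windows come from the NCBI annotation and genome of Mmul_10, matched by symbol.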

Additional observations from a re-analysis of the deposited data

Results flagged for a closer look

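Each of the 8 genes was examined for a library far from the others of its condition and for a donor far from the others in its difference, which made 24 groups of 4 values. Chance alone sets 1 value apart in about 1 of 20 such groups. Here 1 value stood apart: B2M in R12016 with uLPS, at 6033 CPM, where the gap to the nearest library was 0.965 of the whole range of the 4 uLPS libraries. The B2M level of R12016 was also the highest of the 4 donors with MRS2578, at 4354 CPM. The cause was not tested.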

How the results depend on the processing

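With the deposited labels, 0 members were called under every alternative, donors left out and R02046 exchanged included. The number of all genes called was 0, and it was 1 with DESeq2's Wald test, 5 with edgeR's likelihood ratio test, 75 with R02046 exchanged, and 0 to 0 with each donor left out. With R02046 exchanged, 0 members and 75 genes were called. DESeq2's Wald test then called 2 members (TAPBP and CD80) and 583 genes, and the likelihood ratio test 3 members (TAPBP, CD80 and CD40) and 616 genes. Legacy estimation called 39 genes and a minimum of 10 counts in every library 32. Leaving out a donor gave 0 to 4 members and 0 to 919 genes: 0 genes without R07110, 5 without R12016, and 919 genes with TAPBP, NLRC5, CD80 and CD40 without R14143. Over the alternatives with R02046 exchanged, the adjusted p of CD80 ran from 0.00247 to 0.8287 and that of TAPBP from 0.000503 to 0.8287. Without the donor block, the pairing of libraries by animal is ignored, and 0 genes and 0 members were called under both assignments.

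With the deposited labels, 89 of the members' fold changes under alternatives kept their direction and their side of the threshold and 7 turned direction. With R02046 exchanged, 70 kept both, 9 crossed the threshold and 1 turned. CIITA turned from 0.02 to -0.017 with no filter on low counts, -0.11 with no donor block, -0.18 without R07110, -0.13 without R02046 and -0.20 with R02046 exchanged. CD74 turned to 0.014 without R12016 and 0.028 without R14143. With single donors left out and the deposited labels, the fold change ran from -0.21 to 0.028 for CD74 and from -0.18 to 0.36 for CIITA. With R02046 exchanged, CIITA turned to 0.067 without R14143, in a range from -0.54 to 0.067 over the donors left out. With scaling by total counts, the difference turned to 0.024 for CIITA in R12016, 0.030 for NLRC5 in R14143 and 0.029 for CD86 in R07110. The cause of these changes was not tested. With 4 animals and 1 library of each for each condition, the blocked quasi-likelihood test sets the mean effect against a variation estimated partly from all genes. Its p-values are thus not a measure of the spread of the effect between these animals. The other tests and the fits without the donor block estimate this variation in other ways.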

Other observations

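As labelled, the spread between animals was smaller with MRS2578 than with uLPS for every member but CD40, which was noticed in the data and not tested. The mean CPM of each member was lower with MRS2578 too, and the SD was not scaled to the mean. The SD with uLPS and with MRS2578 was 1509 and 942 CPM for B2M and 37.8 and 14.9 CPM for CD86. It was 125 and 101 CPM for CD74 and 5.76 and 3.94 CPM for CIITA. The smaller spread of B2M and CD74 with MRS2578 rested on R12016 and turned without it. In the other donors B2M stood at 3049, 2946 and 3054 CPM with uLPS and at 2696, 2749.6 and 2179 CPM with MRS2578. CD74 stood there at 173, 26.1 and 78.5 CPM with uLPS and at 189, 33.1 and 59.1 CPM with MRS2578. The SD over the 4 donors was 74.0 CPM with uLPS and 6.57 CPM with MRS2578 for CD80, 149 and 26.4 CPM for TAPBP, and 35.4 and 6.09 CPM for NLRC5, with the conditions as labelled. With R02046 exchanged it was 71.4 and 8.96 CPM for CD80 and 33.9 and 8.08 CPM for NLRC5, but 86.5 and 65.8 CPM for TAPBP, so that the difference in spread of TAPBP rested largely on the doubted labels. For CD40 it was 21.98 CPM with uLPS and 25.4 CPM with MRS2578 as labelled, and 26.2 and 14.7 CPM with R02046 exchanged.

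MAMU-DOB, a chain of the class II modulator DO known from B cells, stood at a mean of 140 CPM over the 8 libraries while the 7 B cell markers summed to at most 0.853 CPM. MAMU-DOA, the partner chain with which it forms DO, had 1 count in all 8 libraries together. The highest and lowest donor means of MAMU-DOB differed by a ratio of 1.45, against 9.22 for MAMU-DRA. In the NCBI annotation MAMU-DOB lies on the same strand of chromosome 4 (136716221 to 136720516) as TAP2 (136687038 to 136698796). Whether the reads counted for MAMU-DOB came from its own transcript was not tested.

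TNFSF9 and MAP3K14, named after their values were seen, were higher with MRS2578 in all 4 donors as labelled, as were 780 of the 12131 genes tested. CD80 was lower in R07110, R12016 and R14143 and higher in R02046. With R02046 exchanged, TNFSF9 and MAP3K14 would be lower with MRS2578 in that donor. TNFSF9, the ligand of the T cell receptor 4-1BB, differed by log2 values of 1.02, 1.04, 0.31 and 0.61 for R07110, R12016, R02046 and R14143. MAP3K14, the kinase of the alternative NF-κB route downstream of CD40, differed by 0.55, 1.67, 0.24 and 0.63. Neither gene was called. The log2 fold change of TNFSF9 was 0.83 with the deposited labels and 0.76 with R02046 exchanged (edgeR adjusted p 0.877 and 0.192). That of MAP3K14 was 0.77 and 0.66 (edgeR adjusted p 0.877 and 0.266).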
